A study of Homo sapiens with 6 samples.

Results

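The miR-30 family was followed in small RNA from extracellular vesicles (exosomes) that MHCC97H cells, a human hepatoma line of high metastatic potential, released into their medium. Its members were chosen by name alone: every row whose miRNA name, after removal of the species prefix, the arm and a precursor copy number, is miR-30a, miR-30b, miR-30c, miR-30d or miR-30e. This gave 10 rows for 5 family genes, of 1007 rows in all. The 10 rows, all with the human prefix (as in hsa-miR-30c-5p and hsa-miR-30d-5p), were miR-30a-5p, miR-30a-3p, miR-30b-5p, miR-30b-3p, miR-30c-5p, miR-30c-1-3p, miR-30c-2-3p, miR-30d-5p, miR-30d-3p and miR-30e-3p, and each named a single miRNA. miR-30e-5p had no row, so sums over 5p arms and the balance of 5p to 3p counts are without it. Whether its reads were counted under another name was not tested.

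The study had 6 libraries. The 3 control libraries came from cells without xanthatin, and the 3 xanthatin libraries from cells given 4 µmol/L of xanthatin, a plant-derived sesquiterpene lactone, for 24 h. DMSO, the solvent, stood at 0.5% in all experiments. Both groups grew in DMEM that held 5% ordinary fetal bovine serum plus 5% of an exosome-free kind. Vesicles were spun down from the medium at 120000xg for 70 min, and RNA of 18 to 30 nt was taken from a gel. One cell line was used, and the labels do not say that the libraries of a group came from separate cultures, so p-values measure the spread between these libraries, which may be technical.

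A miRNA hairpin is cut into a duplex with a 5p and a 3p arm, and the arm that is loaded into an Argonaute protein guides it to messenger RNAs that pair with the seed. The 5p arms of the miR-30 family carry one seed. They are known for holding back SNAI1 and thereby the loss of epithelial character, for repressing the autophagy gene BECN1 and for abundant expression in liver and kidney. The 3p arms carry other seeds and are usually the less abundant strands.

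The sequences below show what the family shares and where its counts can be told apart. The RefSeq (GRCh38.p14) mature sequences kept for this comparison covered 6 of the 10 names. miR-30b-5p, miR-30b-3p, miR-30d-5p and miR-30d-3p were not among those kept and are named only. Their absence here does not show that RefSeq lacks them. Capitals mark the seed, bases 2 to 8 from the 5′ end.
miR-30c-5p: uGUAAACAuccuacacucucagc
miR-30a-5p: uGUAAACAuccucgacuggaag
miR-30e-3p: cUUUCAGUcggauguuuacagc
miR-30a-3p: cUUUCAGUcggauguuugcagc
miR-30c-1-3p: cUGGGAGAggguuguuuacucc
miR-30c-2-3p: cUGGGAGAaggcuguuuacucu

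miR-30c-5p and miR-30a-5p had the seed GUAAACA in common and differed at 5 of the 22 positions compared, all of them after the seed (C13A, G14C, G18C, G19U and A20C, with the base of miR-30a-5p first and positions counted from the 5′ end). miR-30a-3p and miR-30e-3p shared the seed UUUCAGU and were identical at 21 of 22 positions, with the single substitution G18A from miR-30a-3p to miR-30e-3p. How many mismatches the read assignment allowed is not given in the labels or the file headers, and whether reads of this pair were shared was not tested. miR-30c-1-3p and miR-30c-2-3p shared the seed UGGGAGA and differed at 3 of 22 positions (G9A, U12C and C22U, miR-30c-1-3p first). Of the 2370 RefSeq mature names kept for the comparison, 3 carried GUAAACA (0.127%), 2 carried UUUCAGU (0.0844%) and 3 carried UGGGAGA (0.127%). The miR-30b and miR-30d arms, and any other name found only on the chromosome left out, were not searched. These counts leave them out. Among the names kept, the single carrier outside the family was miR-6788-5p, with UGGGAGA, and it was not among the 1007 rows.

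The precursors of these 6 names lie at 2 loci. In GENCODE release 29 (GRCh38) MIR30E (chromosome 1, 40754355 to 40754446, plus strand) and MIR30C1 (chromosome 1, 40757284 to 40757372, plus strand) lie 2838 bp apart in an intron of NFYC, which encodes a subunit of the CCAAT-binding factor NF-Y. MIR30C2 (chromosome 6, 71376960 to 71377031, minus strand) and MIR30A (chromosome 6, 71403551 to 71403621, minus strand) lie in introns of the long noncoding RNAs LINC00472 and AL136164.2. No other miRNA gene of that annotation was within 10 kb of these 4 precursors. The mature miR-30c-5p is the same from MIR30C1 and MIR30C2, so its counts do not separate the loci, but the 3p arms do. The hairpin of MIR30A is shown because both of its arms were counted and the less usual arm was the larger one, with the 5p arm and then the 3p arm in capitals.
MIR30A: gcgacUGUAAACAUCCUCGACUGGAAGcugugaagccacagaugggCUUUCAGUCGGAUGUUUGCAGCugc

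Depth limited all but the largest members. The control libraries held 63965 to 80088 miRNA counts and the xanthatin libraries 204520 to 267956. The miR-30 names took 450, 579 and 499 counts in control replicates 1, 2 and 3, and 1300, 1129 and 892 in xanthatin replicates 1, 2 and 3. Levels are given as CPM, counts relative to a library size that TMM scaling corrects for differences in composition. A count of 3 equals 34.7 to 39.9 CPM in a single control library and 12.5 to 16.7 CPM in a single xanthatin library. Without molecular identifiers, such limits and the intervals on shares reflect counting error alone. In bulk vesicle RNA, fewer vesicles with a miRNA and fewer copies per vesicle cannot be told apart.

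miR-30d-5p was the most abundant member in every library. miR-30e-3p came next in the control libraries and miR-30c-5p in the xanthatin libraries, while miR-30a-3p was the fourth by its mean in both groups. None of these 4 names, the only members with enough counts for the test, passed it between xanthatin and control libraries. Their log2 fold changes (xanthatin against control) were -0.49 for miR-30d-5p, -0.83 for miR-30e-3p, 0.22 for miR-30c-5p and 2.05 for miR-30a-3p, a median of -0.13 beside -0.16 over all 254 tested names. By edgeR's quasi-likelihood test 0 of 4 had an adjusted p under 0.05, and 0 of 4 had an unadjusted p under 0.05, beside 44.9% of all tested names. The background was 30.3% of tested names called, 13.4% higher and 16.9% lower (34 and 43 names; 22 and 60 with library totals only). DESeq2 called 1 of the 4, miR-30a-3p, beside 44.9% of the 254 names called and 23.6% called higher. limma-voom called 0 beside 31.9%, and limma-trend 0 beside 35.4%.

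**Figure D1:**
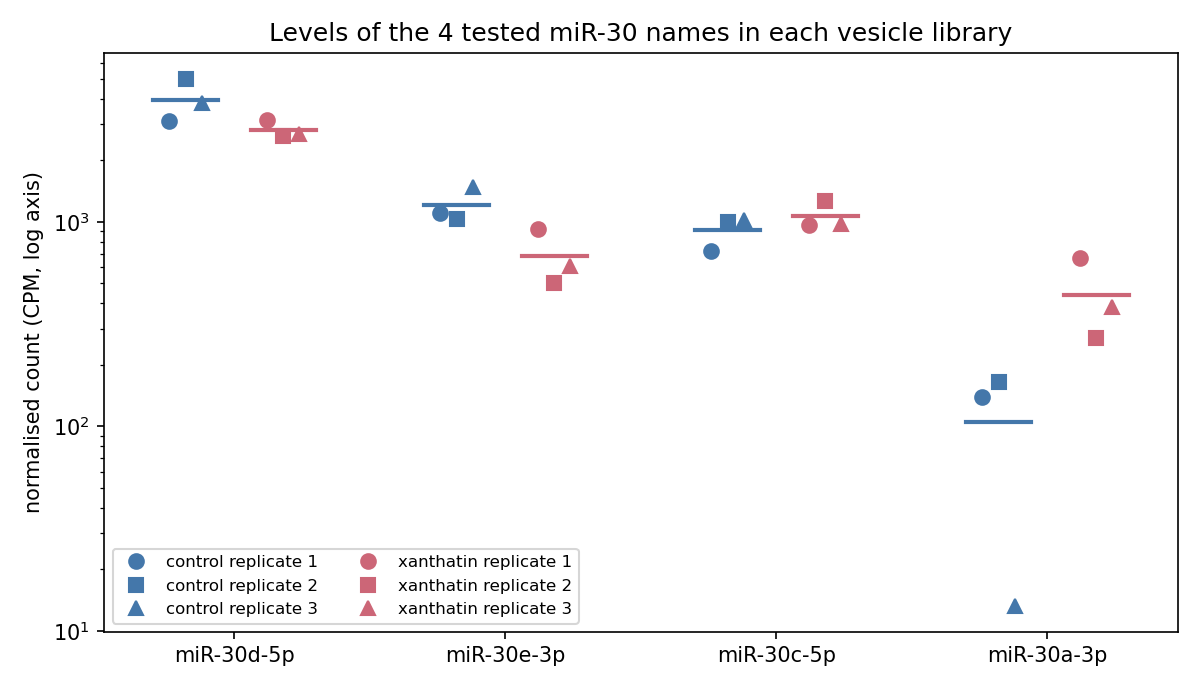
CPM of the 4 tested miR-30 names on a log axis, with 1 point per library (marker shape gives the replicate) and a line at each group's mean. The groups overlap for miR-30d-5p and miR-30c-5p, the xanthatin libraries lie below control for miR-30e-3p and above it for miR-30a-3p.

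Among the 5p arms, miR-30d-5p had 269, 394 and 285 counts in the controls and 666, 634 and 486 in xanthatin libraries. After scaling these were 3113, 4978 and 3792 CPM in control replicates 1, 2 and 3, and 3153, 2636 and 2699 CPM in xanthatin replicates 1, 2 and 3. The groups overlapped: control replicate 1 lay below xanthatin replicate 1, and control replicate 2 was the highest library. The means were 3961 ± 944 and 2829 ± 282 CPM (SD, n = 3 each), with a log2 fold change of -0.49 (SE 0.22, 95% interval -1.02 to 0.05, edgeR adjusted p = 0.139). By mean CPM it ranked 36 among the 1007 names in the controls and 42 in xanthatin libraries.

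miR-30c-5p, the 5p arm that both MIR30C1 and MIR30C2 yield, had 62, 79 and 77 counts in the controls and 203, 303 and 175 in xanthatin libraries. Its levels were 718, 998 and 1025 CPM in the controls and 961, 1260 and 972 CPM in xanthatin libraries. The groups overlapped, and xanthatin replicate 2 was the highest of the 6. The means were 913 ± 170 and 1064 ± 169 CPM (SD, n = 3 each). The log2 fold change was 0.22 (SE 0.29, edgeR adjusted p = 0.604), and its 95% interval of -0.48 to 0.92 spans a fold of 0.719 to 1.89. With library totals only it was -0.13.

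The other 5p arms were near the limit of detection. miR-30a-5p, the best studied member, had 6, 3 and 0 counts in the controls and 15, 0 and 2 in xanthatin libraries, or at most 71.0 CPM. miR-30b-5p had 3, 4 and 7 counts in the controls and 11, 5 and 35 in xanthatin libraries, with its highest level of 194 CPM in xanthatin replicate 3. Over all 4 5p names the summed level was 3935, 6065 and 4910 CPM in the controls and 4237, 3916 and 3877 CPM in xanthatin libraries, so control replicate 1 lay below xanthatin replicate 1.

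Among the 3p arms, miR-30e-3p, from the NFYC intron, had 96, 82 and 111 counts in the controls and 195, 121 and 110 in xanthatin libraries. Its levels were 1111, 1036 and 1477 CPM in the controls and 923, 503 and 611 CPM in xanthatin libraries. Every xanthatin library was below every control library, which held for 29.5% of tested names, and the nearest libraries were control replicate 2 and xanthatin replicate 1. The means were 1208 ± 236 and 679 ± 218 CPM (SD, n = 3 each), a log2 fold change of -0.83 (SE 0.34, 95% interval -1.66 to 0.00335, edgeR adjusted p = 0.112).

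miR-30a-3p, 1 base away from it and from the other locus, lay in the opposite direction. It had 12, 13 and 1 counts in the controls and 141, 65 and 69 in xanthatin libraries. Its levels were 139, 164 and 13.3 CPM in the controls and 668, 270 and 383 CPM in xanthatin libraries. Every xanthatin library was above every control library, which held for 25.2% of tested names, and control replicate 3, with its single count, stood far below the other control libraries. The means were 105 ± 80.8 and 440 ± 205 CPM (SD, n = 3 each). The log2 fold change was 2.05 (SE 0.87, edgeR adjusted p = 0.119), with a 95% interval of -0.06 to 4.15 that spans folds of 0.961 to 17.8. It was 1.58 without control replicate 3 (adjusted p = 0.134) and 1.65 without xanthatin replicate 1 (adjusted p = 0.287), and with DESeq2 it passed at 2.18 (adjusted p = 0.0454).

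**Figure D2:**
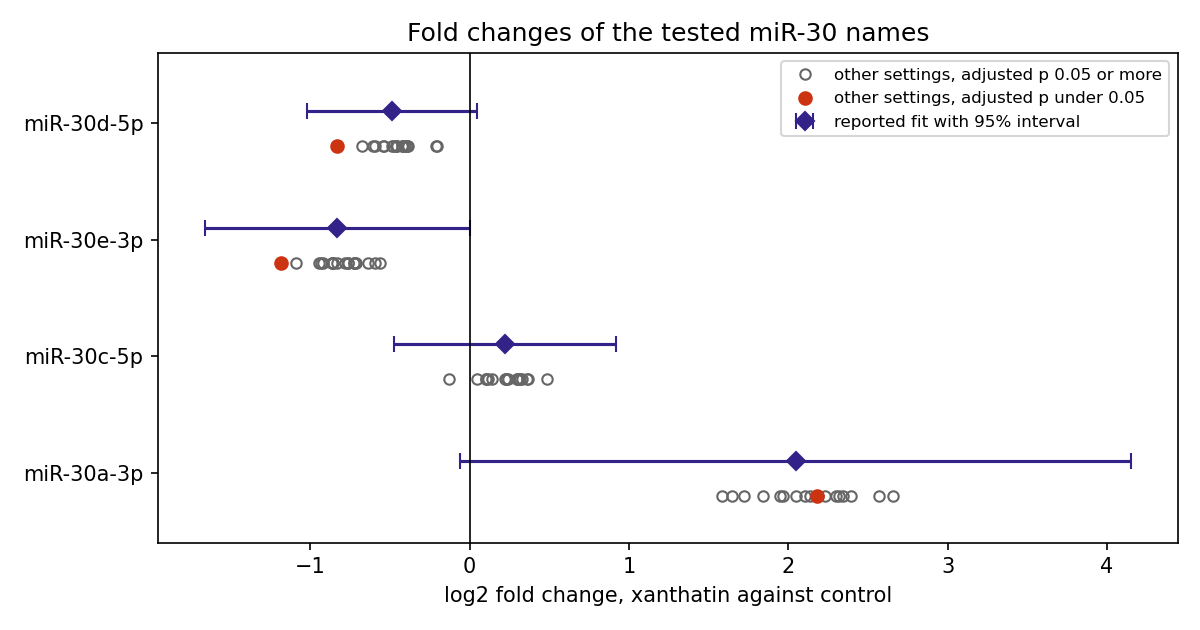
Log2 fold change of each tested miR-30 name between xanthatin and control libraries: diamonds give the reported edgeR fit with its 95% interval, circles the same value under the other settings, filled where the adjusted p was under 0.05. All 4 intervals include 0, and filled circles appear once each for miR-30d-5p, miR-30e-3p and miR-30a-3p.

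Summed over miR-30a-3p and miR-30e-3p, which share a seed, the groups overlapped. The seeds of miR-30b-3p and miR-30d-3p were not compared, and their counts are not in this sum. The sum was 1250, 1200 and 1490 CPM in the controls and 1591, 773 and 994 CPM in xanthatin libraries, with means of 1314 ± 155 and 1119 ± 423 CPM (SD, n = 3 each). miR-30a-3p gave 12 of 108, 13 of 95 and 1 of 112 of these counts in control, and 141 of 336, 65 of 186 and 69 of 179 in xanthatin libraries. It exceeded its own 5p arm in every library, with 26 against 9 counts over the control libraries and 275 against 17 over the xanthatin libraries.

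The remaining 3p arms were rare and uneven. miR-30c-2-3p, which marks the chromosome 6 copy, had 0 counts in all control libraries and 33, 0 and 12 in xanthatin libraries. Against a floor of 3 counts over the control group (12.5 CPM), the pooled xanthatin level was 5.71-fold that floor. It was 2.29-fold without xanthatin replicate 1, while replicate 2 held none. These folds allow for counting error alone and not for the spread between libraries. Names with a count numbered 439 to 484 per control library and 586 to 625 per xanthatin library. How many other names had 0 counts in the controls only was not counted. miR-30c-1-3p, which marks the chromosome 1 copy, had 0 counts in the controls and 1, 1 and 0 in xanthatin libraries, under the floor in both groups. Over the xanthatin libraries the counts were 45 for miR-30c-2-3p and 2 for miR-30c-1-3p. How far counts of these arms reflect the output of the copies was not tested.

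miR-30d-3p, the partner of the most abundant member, had 27 counts in xanthatin replicate 1 and 0 in the other 5 libraries. miR-30b-3p had 2, 4 and 18 counts in the controls and 8, 0 and 3 in xanthatin libraries, and its highest level, 240 CPM, was in control replicate 3. Xanthatin replicate 1 was the one library with a count for all 10 names, against 6 to 8 in the other 5. The 6 untested names together took 95 counts there, 6 in xanthatin replicate 2 and 52 in xanthatin replicate 3, and 11, 11 and 25 in control libraries. Across 74 other miRNAs with both arms in the table, the rarer arm took 4.30% of the counts in xanthatin replicate 1, the lowest of the 6 libraries (the others 4.87% to 7.28%). The rarer arm was set by counts summed over the 6 libraries, in which the deeper xanthatin libraries weigh most.

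As a share of all miRNA counts the family took 0.562%, 0.824% and 0.780% in the controls and 0.545%, 0.421% and 0.436% in xanthatin libraries. Every xanthatin share was below every control share, with means of 0.722% ± 0.141 and 0.468% ± 0.068 (SD, n = 3 each). Control replicate 1 (95% exact Clopper-Pearson interval 0.511% to 0.616%) and xanthatin replicate 1 (0.516% to 0.576%) did not differ beyond counting error. After TMM scaling the groups overlapped, at 5208, 7316 and 6640 CPM in the controls and 6155, 4694 and 4954 CPM in xanthatin libraries. Library totals alone shift the log2 fold changes of all tested names by a median of -0.34 against TMM (-0.11 for totals without the 10 most abundant names). With library totals alone miR-30d-5p (-0.83, adjusted p = 0.0349) and miR-30e-3p (-1.18, adjusted p = 0.0459) passed, 2 of 4 called lower beside 23.6% of all tested names.

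The make-up of the family inside each library needs no scaling between libraries. miR-30d-5p held 59.8%, 68.0% and 57.1% of the miR-30 counts in the controls and 51.2%, 56.2% and 54.5% in xanthatin libraries. Its means were 61.6% ± 5.70 and 54.0% ± 2.50 (SD, n = 3 each), and the groups did not overlap, though control replicate 3 (exact interval 52.6% to 61.5%) and xanthatin replicate 2 (53.2% to 59.1%) lay within counting error of each other. miR-30c-5p held 13.8%, 13.6% and 15.4% in the controls and 15.6%, 26.8% and 19.6% in xanthatin libraries. miR-30e-3p held 21.3%, 14.2% and 22.2% in the controls and 15.0%, 10.7% and 12.3% in xanthatin libraries, with overlap between control replicate 2 and xanthatin replicate 1. miR-30a-3p held 2.67%, 2.25% and 0.20% in the controls and 10.8%, 5.76% and 7.74% in xanthatin libraries. All 3p arms together held 24.4%, 17.1% and 26.1% in the controls and 31.2%, 16.6% and 21.7% in xanthatin libraries, so the balance of the arms showed no separation of the groups.

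**Figure D3:**
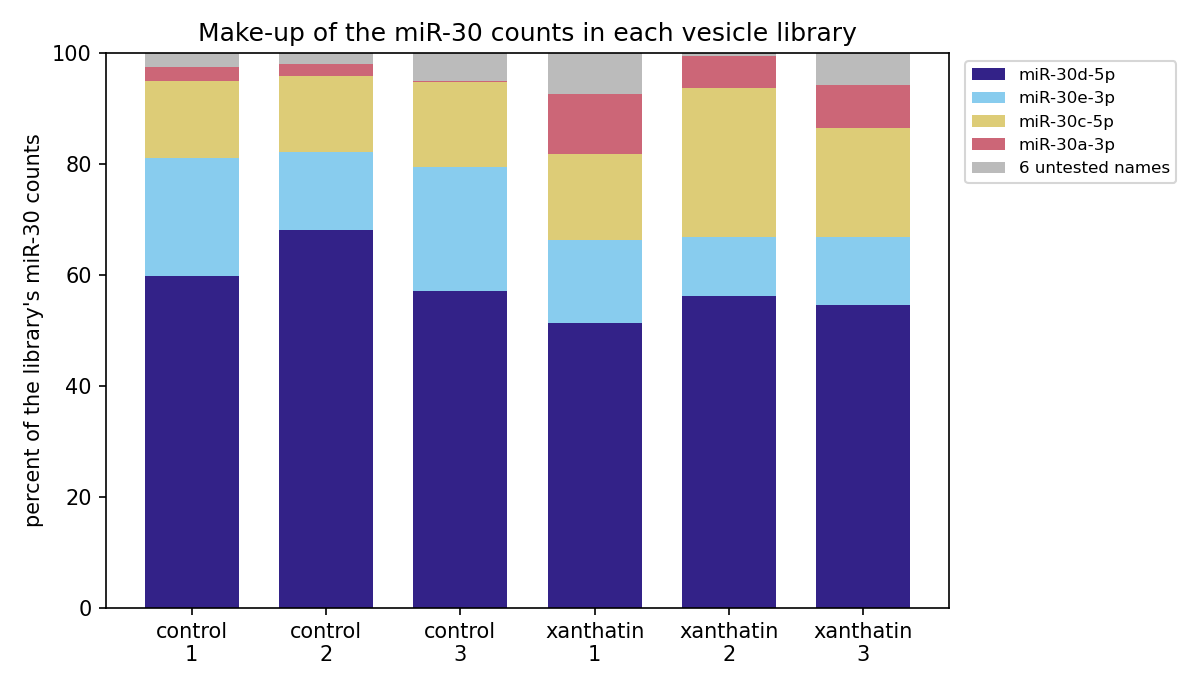
Percent of each library's miR-30 counts taken by the 4 tested names and by the 6 untested names together, 1 stacked bar per library. miR-30d-5p takes over 50% of each bar, and miR-30a-3p takes 5.76% to 10.8% in xanthatin libraries against 0.20% to 2.67% in control.

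Ratios of counts inside a library are likewise free of scaling. The ratio of miR-30d-5p to miR-30c-5p was 4.34, 4.99 and 3.70 in the controls and 3.28, 2.09 and 2.78 in xanthatin libraries, a difference of -0.68 in mean log2 ratio with no overlap (two-sided exact permutation p = 0.10, the smallest that 3 against 3 libraries allow). The ratio of miR-30c-5p to miR-30e-3p was 0.646, 0.963 and 0.694 in control, below 1 in 3 of 3, and 1.04, 2.50 and 1.59 in xanthatin libraries, above 1 in 3 of 3. These neighbours in the order of levels thus stood the other way round, but 79 against 82 counts in control replicate 2 and 203 against 195 in xanthatin replicate 1 are within counting error. The ratio of miR-30e-3p to miR-30a-3p was 8.0, 6.31 and 111 in the controls and 1.38, 1.86 and 1.59 in xanthatin libraries. Of the 6 pairs among the tested names, 5 had groups that did not overlap (the pairs share members, and 45.3% of all pairs of tested names did not overlap), each with an exact permutation p = 0.10 (adjusted p = 0.12 over the 6 pairs), and miR-30d-5p to miR-30e-3p overlapped (p = 0.30, exact permutation). With this number of libraries no such ratio can reach 0.05, and 5 of the 6 pairs were added after the values were seen.

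**Figure D4:**
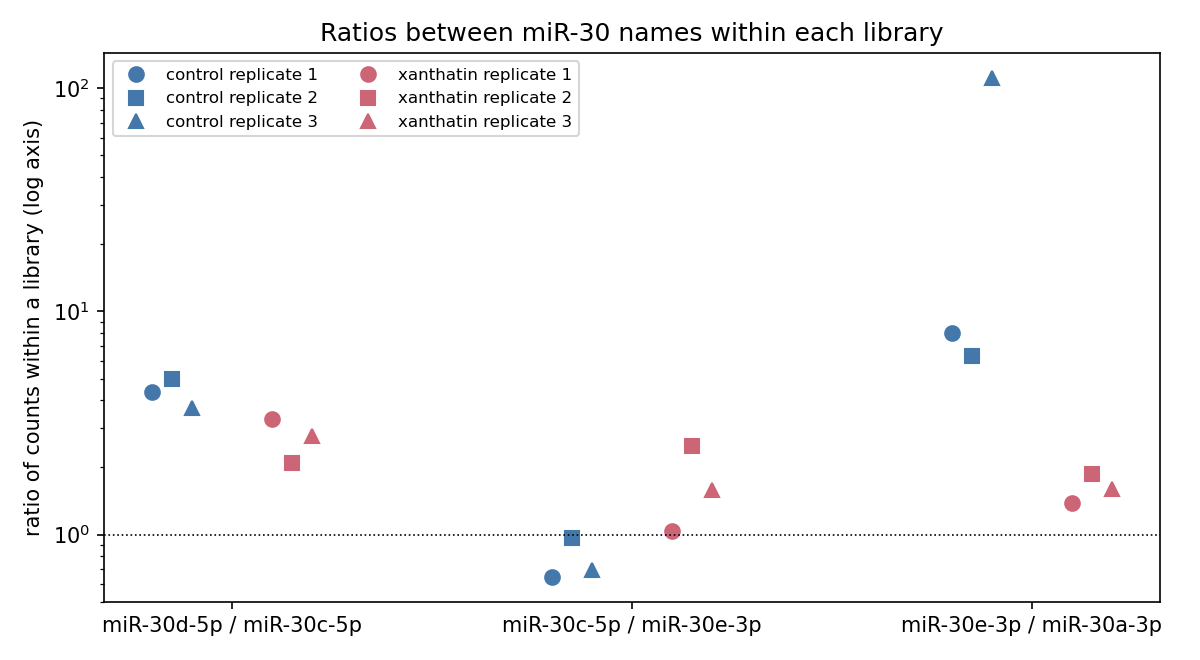
Ratio of counts between 2 miR-30 names inside each library, on a log axis, with 1 point per library and a dotted line at equal counts. The groups do not overlap for any of the 3 pairs shown, and the miR-30e-3p to miR-30a-3p ratio of control replicate 3 (111) rests on 1 count of miR-30a-3p.

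The values that the authors deposited as TPM, which refer to a larger total than the miRNA counts, gave the same overlaps for the tested names. miR-30d-5p stood at 22.2, 39.7 and 30.3 TPM in the controls and 23.1, 19.9 and 18.1 in xanthatin libraries. miR-30e-3p stood at 7.91, 8.27 and 11.8 TPM in the controls and 6.75, 3.80 and 4.09 in xanthatin libraries. miR-30a-3p stood at 0.989, 1.31 and 0.106 TPM in the controls and 4.88, 2.04 and 2.57 in xanthatin libraries.

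The names whose profile over the 6 libraries was most like that of miR-30d-5p, by the root mean square distance of centred log2(CPM + 1), were miR-10a-5p (0.201), miR-92a-3p (0.206), miR-335-3p (0.223), miR-375-3p (0.224) and the predicted sequence novel530_mature (0.242), beside a median distance of 1.08. Those most like miR-30c-5p were miR-26a-5p (0.179), miR-182-5p (0.243), miR-125a-5p (0.259), miR-99a-5p (0.260) and miR-151a-3p (0.261). The family did not lead either order. Of the 254 tested names, miR-30e-3p was at place 14 (0.389) and miR-30c-5p at place 19 (0.413) from miR-30d-5p. Both distances were under the median, while miR-30a-3p was at place 179 (1.91). From miR-30c-5p, miR-30d-5p was at place 20, miR-30e-3p at place 64 and miR-30a-3p at place 175. These distances describe 6 libraries that share their depth split.

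Other miRNAs that, like the miR-30 5p arms, are known to hold back the loss of epithelial character gave 10 tested names, either arm counted, of which 3 were called lower and 1 higher by edgeR, beside 16.9% lower and 13.4% higher over all tested names. Their median log2 fold change was -1.03. miR-148a-3p, the most abundant, was at 54885 ± 9121 and 22469 ± 3297 CPM (log2 fold change -1.29, adjusted p = 0.00272), and miR-192-5p, next, at 3978 ± 1677 and 9282 ± 499 CPM (1.22, adjusted p = 0.0399). The other names called lower were miR-200c-3p (-1.25) and miR-203a-3p (-2.27). A list of miRNA genes known to repress autophagy genes gave 10 tested names, of which 2 were called higher (13.4% over all tested names) and 0 lower (16.9%), with a median of -0.69. Both lists hold miR-23b and miR-101 (the latter with too few counts for the test), and both were matched by gene without the arm. Names whose seed differs from that of the studied arm are therefore counted. The 2 called were miR-183-5p (5591 ± 163 and 11753 ± 143 CPM, log2 fold change 1.07, adjusted p = 9.27e-04) and miR-106b-3p (2845 ± 130 and 4390 ± 50.7 CPM, 0.63, adjusted p = 0.0183), while the other arm, miR-106b-5p, had too few counts for the test.

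The summed levels of cell type markers also differed between these libraries, and their part in the miR-30 values was not tested. Their counts called stand beside 16.9% lower and 13.4% higher over all tested names. Hepatocyte markers summed to 107059 to 129508 CPM in the controls and 32407 to 40772 CPM in xanthatin libraries, with 3 of 7 tested names called lower and 1 higher, and all 6 marker genes were read. Of those called, miR-148a-3p and miR-192-5p were also counted above among the miRNAs that hold back the loss of epithelial character. Blood and serum markers summed to 5660 to 11180 and 769 to 955 CPM (1 of 2 tested lower, miR-144 at 0 throughout). Stromal and endothelial markers summed to 3664 to 5243 and 686 to 1005 CPM (2 of 3 tested lower, none of 7 genes at 0). Muscle markers summed to 265 to 382 and 54.0 to 180 CPM (1 of 1 tested lower, miR-133b at 0 throughout).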

How the data were processed

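Small RNA of 6 vesicle libraries was analysed. Per the file headers, the authors deposited a raw count and a TPM value for each mature miRNA name and library. The deposited TPM equals the count divided by 1 constant per library. Per the submitters' processing notes the build was hg38. The labels and headers name no aligner, miRNA database or counter.

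The main test was that of edgeR 4.0.16, run in R 4.3.3 (quasi-likelihood F test on group, TMM scaling, default count filter with minimum count 10, Benjamini-Hochberg adjustment over all 254 tested names, threshold 0.05). Each SE was taken as the size of the log2 fold change over the square root of F. The fit was tested on simulated data that gave every name the same relative spread beyond counting error. Its behaviour there need not hold for these libraries. Alternatives used DESeq2 1.42.0, limma 3.58.1, other scalings and filters, a replicate block, thinned libraries and each library left out. Ratios took a pseudocount of 0.5 on the log2 scale. No replicate pair held identical counts (chi-square per degree of freedom 16.1 to 21.3). Members and lists were chosen with earlier results of these data known: all rows matching the name rule, the 5 nearest profiles and the 2 most abundant tested names of each list. Further list members named were chosen after their values were seen.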

Additional observations from a re-analysis of the deposited data

How the results depend on the processing

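Over 20 other settings, the log2 fold change ranged from -0.83 to -0.21 for miR-30d-5p, from -1.18 to -0.56 for miR-30e-3p and from 1.58 to 2.66 for miR-30a-3p, and each kept its direction. miR-30c-5p ranged from -0.13, with library totals only (adjusted p = 0.799), to 0.49 with no count filter. The number of miR-30 names called was 0 in the reported fit, 2 with library totals only, 1 with DESeq2 and 0 in the other 18 settings, including no count filter, where all 10 were tested. Leaving out 1 library gave 0 each time. The number of all names called was 77, 114 with DESeq2 (60 higher and 54 lower), 49 with known names only (175 tested, fewer names) and 56 to 69 with 1 library left out. A fit with the replicate block called 54 names and 0 miR-30 names. Same-numbered libraries had deviations correlated at 0.073, -0.047 and -0.021, and not every library correlated best with its own number, so the numbers were not taken as pairs. The difference in the family's share of miRNA counts stayed between -0.335 and -0.203 percentage points (reported -0.255), that in the miR-30d-5p share of the family between -9.96 and -4.49 (reported -7.69), and that in the log2 ratio of miR-30d-5p to miR-30c-5p between -0.83 and -0.51. The log2 ratio of 5p to 3p counts differed by -0.03, and by -0.31 to 0.29 with 1 library left out. The 6 untested names had 2 to 65 counts over the 6 libraries. They were left out by the count filter, and with no filter none was called.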
